A study of Mus musculus with 9 samples.

Results

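The genes described here are 10 genes of cartilage: Col2a1, Col9a1, Col9a2, Col9a3, Col11a1, Col11a2, Acan, Sox9, Comp and Hapln1. They were chosen by name for their place in cartilage and selected on measured values, because Col2a1 was already known to differ widely among the 9 cell clones of the series. Of the 10 genes, 8 had a row in the deposited table of 18049 genes, while Col9a1 and Hapln1 were not analysed here. Their levels are therefore given as a description, without a test of the spread that led to the choice.

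RNA was sequenced from 9 clones of murine primary cells (MPC) cultured from pancreatic tumors of WTg mice (EL1-Luc/EL1-Tag x CAG-Mettl3). In these mice the Elastase I promoter, active in the acinar cells of the pancreas, drives the SV40 T antigen and luciferase, and the CAG promoter, active in most cell types, drives Mettl3, the catalytic subunit of the enzyme that writes N6-methyladenosine on mRNA. All 9 libraries are labelled with the same WTg genotype and as untreated, although the protocol text names the PLK1 inhibitor NMS-P937 at 80 nM. The labels call the cells fibroblasts of the pancreas. Each clone was a colony picked from attached tumor cells. The ages and the number of mice behind the clones are not given in the sources used here. Without a second condition, the p-values below set a slope over the clones against the scatter of these clones around it.

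Libraries are named by the column headers of the table, which begin with MET (1 library), Whe10 (4 libraries) or Whe3 (4 libraries), because these could not be matched to the sample titles. Levels are normalized counts, on which 1 read was worth 1.26 to 2.19, and the depth was 12198022 reads in MET and 16526389 to 20453923 reads in the other 8 libraries. The floor, the level of 3 reads, was 3.79 to 6.56 normalized counts, and confidence intervals and floors cover counting error only. Mettl3 was at 2184 normalized counts in MET and at 468 to 621 in the other 8. Xist, the RNA that coats the inactive X chromosome, was at 29664 to 32912 normalized counts in the Whe10 libraries. It was at 0 to 8.39 in the Whe3 libraries and at 0 in MET. Ddx3y, a gene of the Y chromosome, was at 0 in all Whe10 libraries, at 2376 to 2719.6 in the Whe3 libraries and at 2444 in MET. By these genes the Whe10 clones differ in sex from the others, so the clones came from more than 1 mouse. The Whe10 prefix and sex cannot be told apart. Clones of 1 prefix may share a mouse, but the main fits treat all clones as independent.

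Hyaline cartilage is built on fibrils of type II collagen, the homotrimer made from Col2a1. Type XI collagen lies within these fibrils and limits their width, type IX collagen coats their surface, and the proteoglycan aggrecan (Acan), held on hyaluronan by the link protein Hapln1, fills the space between them with bound water. SOX9 is the transcription factor that turns on most of these genes in chondrocytes, together with SOX5 and SOX6. SOX9 is also present in the ducts and progenitor cells of the pancreas, and COMP, a pentameric glycoprotein that binds collagen, is made by tendon and activated fibroblasts as well as by cartilage, so neither gene marks cartilage alone.

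The sequences just upstream of 3 of the genes are shown because the genes differ in whether any RNA was counted: Col11a1 was counted in every library, Col9a2 stayed at or under the floor in every library and Acan had no read in any. They are RefSeq sequences of GRCm38.p6, plus strand, 5′ to 3′, ending at the base before the annotated gene start, with each CG pair in capitals. Col11a1 lies at chr3:114030479-114220756, Col9a2 at chr4:121039566-121055325 and Acan at chr7:79053226-79115099.
Col11a1, chr3:114030290-114030478: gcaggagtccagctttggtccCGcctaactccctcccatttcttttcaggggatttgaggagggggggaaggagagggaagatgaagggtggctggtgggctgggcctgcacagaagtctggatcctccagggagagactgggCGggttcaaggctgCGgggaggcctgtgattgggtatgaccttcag
Col9a2, chr4:121039316-121039565: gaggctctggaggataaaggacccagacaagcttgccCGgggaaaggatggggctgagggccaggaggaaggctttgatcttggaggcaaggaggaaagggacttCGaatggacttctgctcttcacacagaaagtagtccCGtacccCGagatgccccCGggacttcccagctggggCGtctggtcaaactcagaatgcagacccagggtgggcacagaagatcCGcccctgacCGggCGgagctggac
Acan, chr7:79052976-79053225: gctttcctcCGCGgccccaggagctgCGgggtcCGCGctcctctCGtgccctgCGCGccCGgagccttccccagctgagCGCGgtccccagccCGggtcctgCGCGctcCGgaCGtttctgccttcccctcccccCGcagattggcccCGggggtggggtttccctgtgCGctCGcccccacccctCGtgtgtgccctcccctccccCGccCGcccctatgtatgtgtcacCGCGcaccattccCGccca
CG pairs were counted in the 300-base windows of the promoter table, which take 250 bases before and 50 after a start of the table's own. For Col11a1 that start lies downstream of the gene start given above, so the 189 bases shown hold 3 of the 9 CG pairs of its window. Acan had 31 CG pairs, and 10.6% of the 32851 windows of the table had as many or more. Col9a2 had 10 CG pairs and Col11a1 had 9 in these windows, against a median of 7 over all windows, so the gene without reads had the most CG pairs of the 3. The letters AACAAT and ACAAAG, which SOX proteins can bind, were searched on both strands and were absent from all 7 windows of the 6 cartilage genes with a window (Col9a1, Col9a2, Col11a1, Col11a2, Acan and Hapln1), while 27.0% of all windows held either.

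Col2a1 (ENSMUSG00000022483, chr15:97975602-98004724), the main fibril collagen of cartilage, ran from no read to one of the higher levels of a library. It was at 0 normalized counts in MET, 5.17 in Whe3_11A, 253 in Whe3_7A, 556 in Whe10_7A and 869 in Whe3_5A. It reached 1149 in Whe10_11A, 1285 in Whe3_12A, 1519 in Whe10_8A and 3760.1 in Whe10_10A. Thus 7 of the 9 clones held Col2a1 far above the floor, Whe3_11A held 4 reads with a 95% interval of 2.01 to 13.3 normalized counts that reaches below its floor, and MET held none. The mean was 1044 ± 1158 normalized counts (SD, n = 9), and the mean without Whe10_10A was 704.

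The level in Whe10_10A, 2955 reads, was 573 times the floor of 6.56 normalized counts in MET. Its interval was 3627 to 3898 normalized counts, and that of MET, with no read, was 0 to 8.41. Neighbouring clones in the order of levels stood apart less clearly, since Whe10_11A, Whe3_12A and Whe10_8A lay within 1149 to 1519 normalized counts. On log2(normalized counts + 1), the SD of Col2a1 over the clones was 4.02, which was rank 9 among the 14705 genes whose mean level was 10 normalized counts or more, where the median SD was 0.25. Col2a1 was chosen for its spread over these clones, so this rank is a description only. The SD takes in MET at 0 and Whe3_11A at 5.17 normalized counts, while the other clones ran from 253 to 3760.1. Among all genes of a library, with no correction for length, Col2a1 stood between percentile 5.73 in MET and percentile 92.7 in Whe10_10A. The 4 Whe10 libraries lay between 556 and 3760.1 normalized counts and the 4 Whe3 libraries between 5.17 and 1285, so the ranges of the prefixes overlapped and the spread was present within both.

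**Figure D1:**
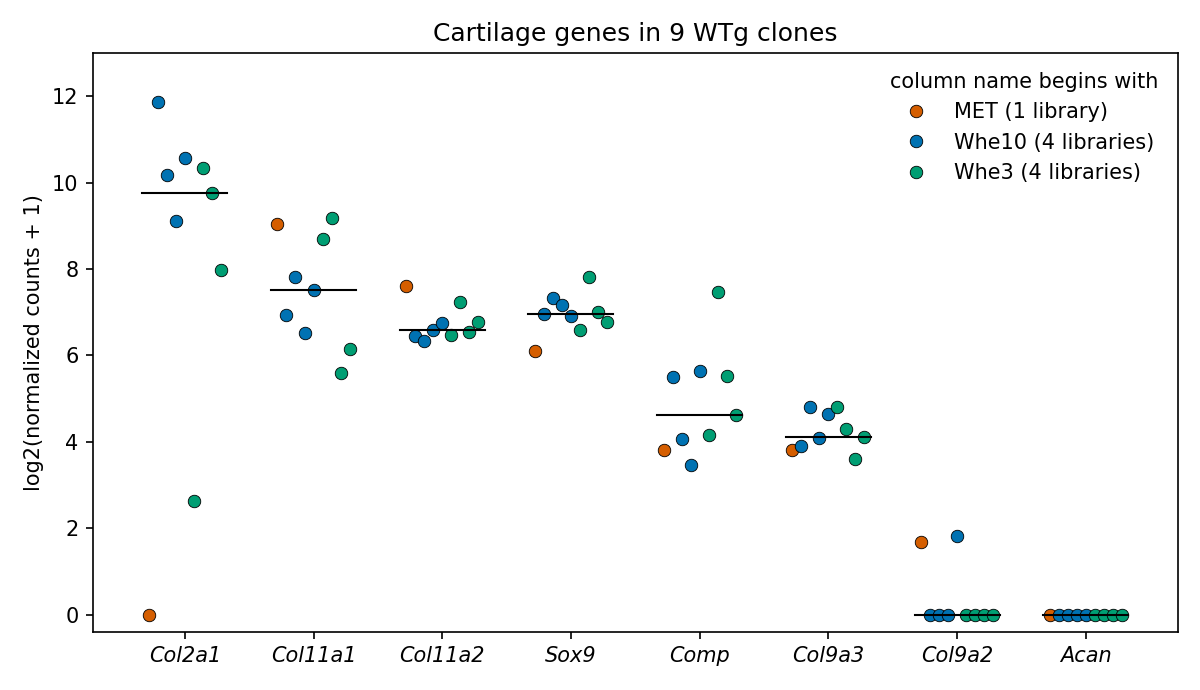
Levels of the 8 cartilage genes with a row in the table, as log2(normalized counts + 1) on the y axis, with 1 point per library coloured by the start of its column name and a line at the median of the 9 libraries. Col2a1 spans the whole axis, from 0 in MET to 3760.1 normalized counts in Whe10_10A, Sox9 and Col11a2 lie close together, and Acan lies at 0 in every library.

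The type XI collagen chains, which co-assemble with type II collagen in cartilage and with type V collagen elsewhere, were counted in every clone. Col11a1 (ENSMUSG00000027966) was at 47.6 normalized counts in Whe3_5A, 69.4 in Whe3_7A, 91.2 in Whe10_7A, 122 in Whe10_10A, 180.4 in Whe10_8A and 226 in Whe10_11A. It was highest at 411 in Whe3_11A, 525 in MET and 578 in Whe3_12A, with a mean of 250.1 ± 203 (SD, n = 9). The highest clone was thus 12.1-fold above the lowest, and their intervals, 522 to 639 and 34.0 to 66.5 normalized counts, did not overlap. MET and Whe3_11A, the clones with the least Col2a1, were among the 3 with the most Col11a1.

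Col11a2 (ENSMUSG00000024330, chr17:34038919-34066684), the second chain of type XI collagen, varied less than Col11a1. Its lowest level was 79.7 normalized counts in Whe10_11A, the median 95.5 in Whe10_7A and the highest 195 in MET, a 2.44-fold range around a mean of 112 ± 37.7 (SD, n = 9). The ratio of Col11a1 to Col11a2, normalized counts over normalized counts without correction for length, went from 0.515 in Whe3_5A to 4.68 in Whe3_11A. The chains of 1 trimer therefore did not keep a fixed ratio of RNA over the clones. The SD of the log2 level was 1.29 for Col11a1 (rank 800 of 14705) and 0.42 for Col11a2 (rank 4540).

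Of type IX collagen, which sits on the surface of cartilage fibrils and needs the products of Col9a1, Col9a2 and Col9a3, Col9a3 alone of the 2 genes with a row was counted above the floor. Col9a3 (ENSMUSG00000027570, chr2:180598102-180622192) was between 11.2 normalized counts in Whe3_5A and 27.2 in Whe3_11A, with a median of 16.2 and a mean of 18.6 ± 6.05 (SD, n = 9). These levels rest on 6 to 21 reads, and the interval of the lowest, 5.67 to 22.1, overlapped that of the highest, 17.8 to 41.5. Differences between clones were not tested. Col9a2 (ENSMUSG00000028626) had 3 reads in all, 1 in MET and 2 in Whe10_8A, and none in the other 7 libraries.

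Acan (ENSMUSG00000030607), the core protein of aggrecan, had 0 reads in all 9 libraries. Over the 160571732 reads of the 9 libraries, a count of 0 allows a share of up to 1.87e-06%. The clone with the most Col2a1, Whe10_10A, thus held 2955 reads of Col2a1 and none of Acan or Col9a2. Of the 18049 genes with a row, 403 (2.23%) had no read in any of the 9 clones. How rows were chosen is not given in the sources used here, and the table also holds 6 columns of other libraries. This share therefore describes the rows that were kept, and does not show how common a count of 0 was among all genes.

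Sox9 (ENSMUSG00000000567, chr11:112782210-112787757) was counted in every clone and varied far less than Col2a1. It was at 67.8 normalized counts in MET, 95.7 in Whe3_11A, 108 in Whe3_7A, 119 in Whe10_8A, 123 in Whe10_10A, 127 in Whe3_5A, 143 in Whe10_7A, 159 in Whe10_11A and 226 in Whe3_12A. The lowest 3 clones were the same clones, in the same order, as the lowest 3 for Col2a1, but the clone with the most Sox9 was not the clone with the most Col2a1. The mean was 130.0 ± 44.8 (SD, n = 9), and the highest was 3.34-fold above the lowest. The ratio of Col2a1 to Sox9 was 0 in MET, 0.0541 in Whe3_11A, 2.34 in Whe3_7A and 30.5 in Whe10_10A, so clones with like Sox9 levels, such as Whe10_10A at 123 and Whe3_7A at 108, differed in Col2a1 (3760.1 and 253 normalized counts).

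Comp (ENSMUSG00000031849) was at 10.1 normalized counts in Whe10_7A, 13.1 in MET, 15.7 in Whe10_11A, 16.8 in Whe3_11A, 23.6 in Whe3_7A, 44.5 in Whe10_10A, 44.8 in Whe3_5A, 49.2 in Whe10_8A and 176 in Whe3_12A. Whe3_12A stood apart from the other 8 clones, with 113 reads against 6 to 39 in the others. The mean of 43.8 ± 52.0 (SD, n = 9) became 27.2 without Whe3_12A. The same clone also had the highest level of Sox9 and of Col11a1.

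Within the clones, Col2a1 and its fibril partner Col11a1 did not keep a common ratio. Col2a1 over Col11a1 was 0 in MET, 0.0126 in Whe3_11A, 2.22 in Whe3_12A and 30.8 in Whe10_10A. Over the 9 clones, Pearson's r of log2 levels with Col2a1 was 0.76 for Sox9, 0.51 for Comp, 0.01 for Col9a3, -0.50 for Col11a1 and -0.51 for Col11a2. Without MET and Whe3_11A (n = 7), r was 0.21 for Sox9, 0.42 for Comp, 0.09 for Col9a3, 0.41 for Col11a1 and -0.17 for Col11a2. The value for Sox9 thus rested on these clones, and for Col11a1 the sign changed without them. These correlations are descriptions over clones that share a table and a scaling, and the r of Sox9 ranked 498 among 14704 genes.

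**Figure D2:**
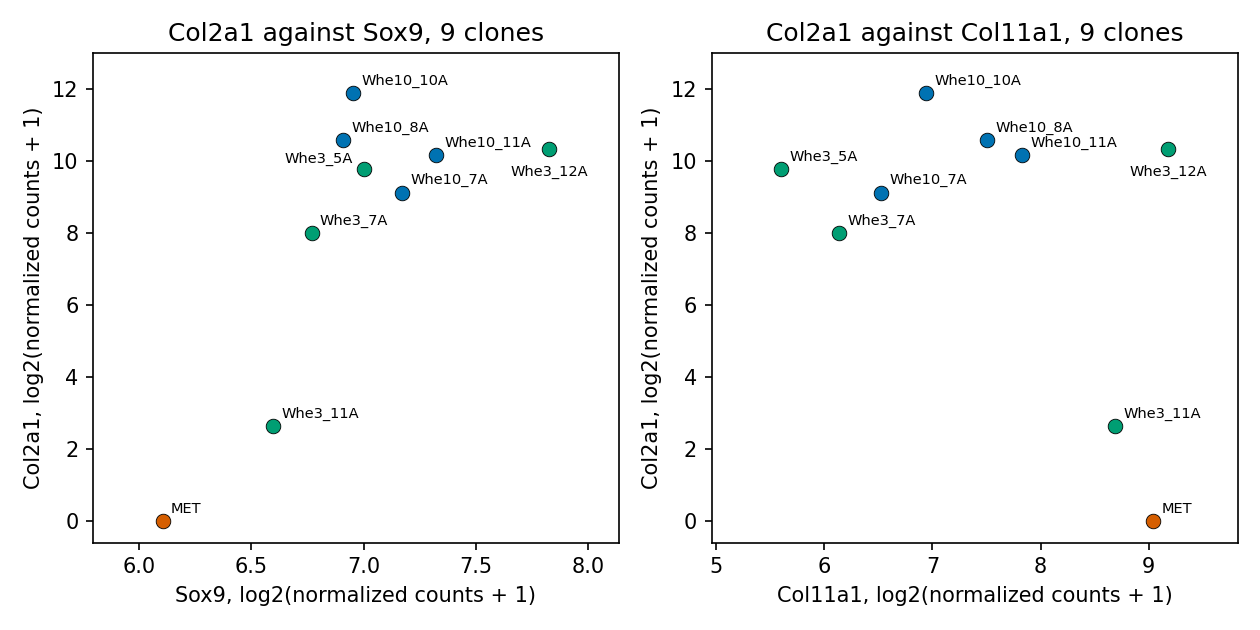
Col2a1 on the y axis against Sox9 (left) and Col11a1 (right) on the x axes, all as log2(normalized counts + 1), with 1 labelled point per library coloured by the start of its name. MET and Whe3_11A lie at the bottom of both panels, at the lowest 2 levels of Sox9 and among the 3 highest of Col11a1, while the other 7 clones show no clear order.

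The 10 genes most like Col2a1, by r of log2 levels over the 9 clones among the genes whose mean level was 10 or more, were Ski (0.970), Rere (0.967), Btg1 (0.962), Dnaaf4 (0.962), Helz (0.961), Runx1 (0.958), Apol7d (0.944), Zdhhc4 (0.942), Camk2b (0.940) and Tmem74 (0.940). None of the cartilage genes was among them. Ski, a corepressor of SMAD signaling, was at 3692 normalized counts in MET, 4350.2 in Whe3_11A and 5575 in Whe10_10A, so its range was narrow beside that of Col2a1. Tmem74, a transmembrane protein of vesicles, was at 0 in MET, 5.17 in Whe3_11A and 24.2 in Whe10_10A. Without MET and Whe3_11A, r was 0.911 for Tmem74 and 0.776 for Ski, but -0.003 for Camk2b. By Spearman's rho only 2 of the 10 stayed among the 10 most alike, and 1 stayed without MET, 2 without Whe3_12A and 3 without Whe3_11A, so the list was not stable over single clones.

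Other genes of cartilage were read from lists by role. Of 21 further matrix genes, 12 had a row, 6 were above the floor in every clone, 5 in some, and Chad, a collagen-binding leucine-rich protein of cartilage, was at or under it in all. Col10a1, the collagen of hypertrophic cartilage, was at 32.8 normalized counts in MET, 282 in Whe10_10A, 7.12 in Whe10_11A, 7.23 in Whe10_7A, 183 in Whe10_8A, 36.2 in Whe3_11A, 42.1 in Whe3_12A, 72.7 in Whe3_5A and 35.4 in Whe3_7A. The clone highest in Col10a1 was thus also the highest in Col2a1, but MET had more Col10a1 than Whe10_11A, which had 1149 normalized counts of Col2a1. The other matrix genes named by the rule are of wider use than cartilage. Ccn2, a matricellular growth factor, had a mean of 50826 ± 13699.7, Prelp, a leucine-rich proteoglycan, of 5126 ± 3858, and Fmod, which binds type I and type II collagen, of 426 ± 508 normalized counts (SD, n = 9).

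Of 14 further transcription factors, 13 had a row and 9 were above the floor in every clone, while Pax9 was at or under it in all. Runx2, which drives hypertrophy of chondrocytes and bone formation, varied little, at 584 ± 54.7 normalized counts (SD, n = 9). Sox5 and Sox6, the partners of SOX9, were named here after their values were seen. Sox5 was above the floor in every clone, at 51.5 ± 11.8 normalized counts (SD, n = 9). Sox6 ran from 0 in MET and Whe3_5A to 26.0 in Whe10_7A, with a median of 11.4 and a level of 23.3 in Whe3_11A. Of 18 signals and receptors, 17 had a row, 11 were above the floor in every clone, and Pthlh and Gdf5, ligands that hold chondrocytes in proliferation and mark forming joints, respectively, were at or under it in all. Grem1, a secreted inhibitor of BMP ligands, had a mean of 22179 and Tgfb3 of 3381 normalized counts.

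The machinery that any collagen-producing cell shares was present throughout. All 16 genes of proteoglycan and collagen synthesis were above the floor in every clone, among them Lox, which crosslinks collagen, at 21115 ± 10347 normalized counts and Serpinh1, the collagen chaperone, at 20482 ± 8321 (SD, n = 9). All 11 partner collagens were above the floor as well, with Col1a1, the main collagen of fibroblasts and bone, at 85587 ± 37951 and a range of 37439 to 164208 normalized counts. Of 11 genes of matrix breakdown, 10 were above the floor in every clone, and Timp3, an inhibitor of matrix proteases, ran from 4972 normalized counts in MET to 72001 in Whe10_8A.

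**Figure D3:**
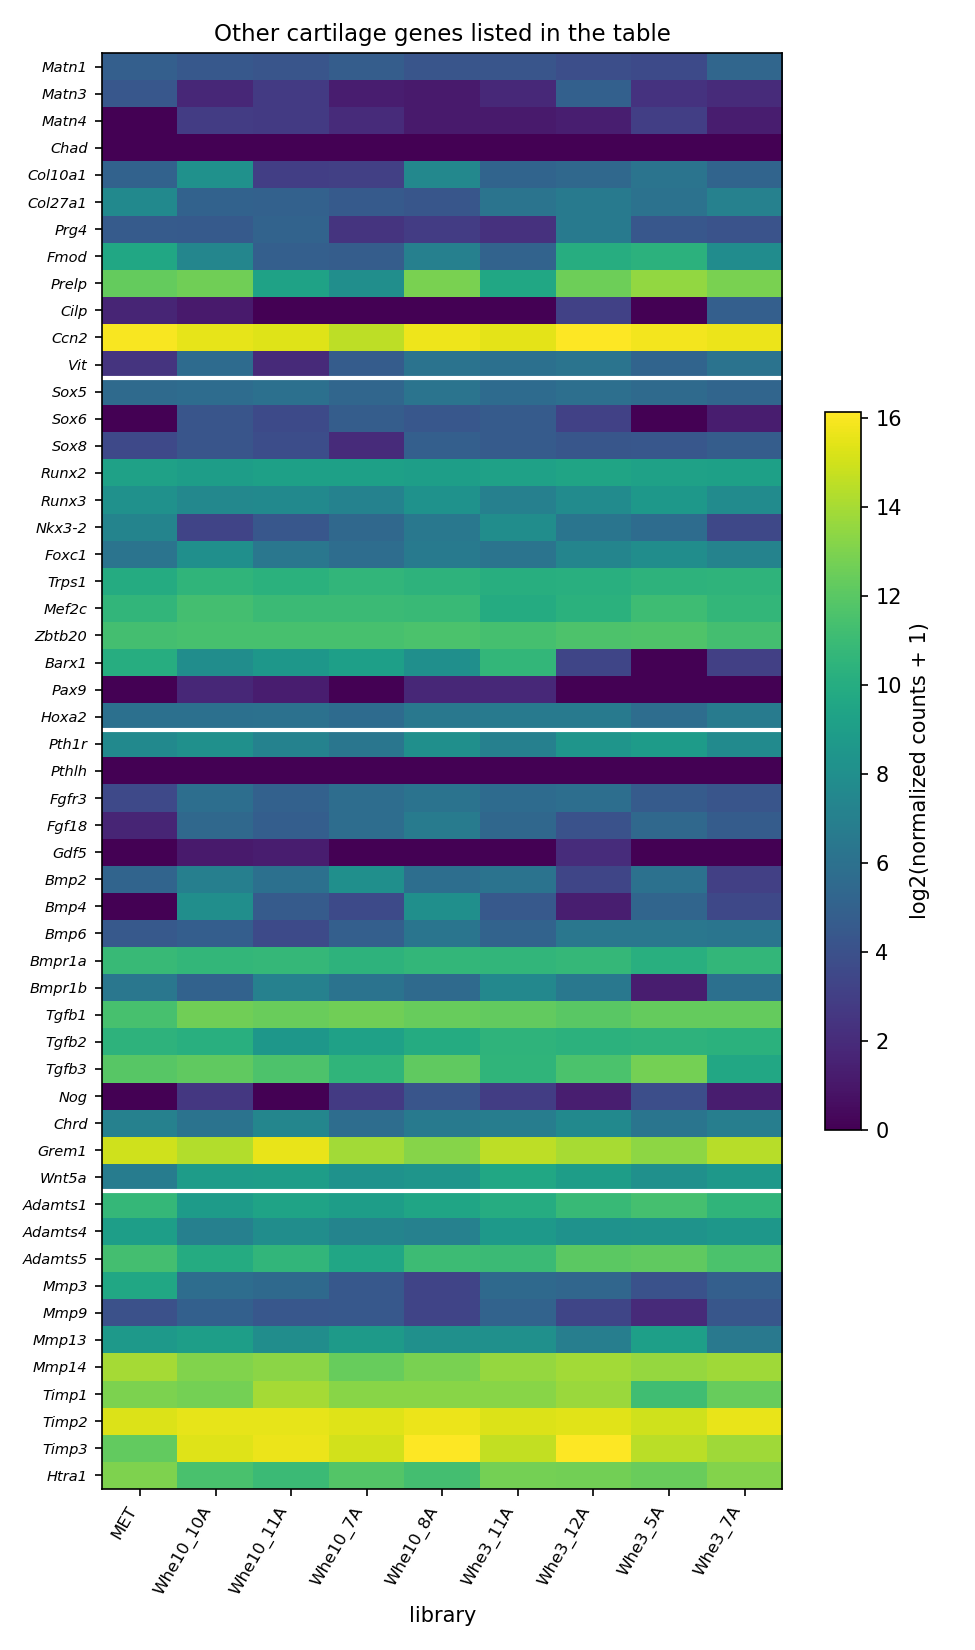
Levels of other cartilage genes in the 9 libraries (columns), coloured by log2(normalized counts + 1), with white lines between matrix genes, transcription factors, signals and receptors, and genes of matrix breakdown from top to bottom. Chad, Pthlh and Gdf5 are dark in every library, Ccn2, Grem1 and Timp2 are bright in every library, and Col10a1 is brightest in Whe10_10A, at 282 normalized counts.

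Markers of other cells were read in the same libraries, since in bulk RNA fewer cells of a type and less RNA per cell cannot be told apart. Macrophage genes were all above the floor, 10 of 10 in every clone, with Lyz2 at 407389 ± 81985 normalized counts (SD, n = 9), although the labels call the cells fibroblasts. Of 10 fibroblast genes, 9 were above the floor in every clone, and Fn1 had 276558 ± 70160.1. Of 7 osteoblast genes, 3 had a row and none was above the floor in all clones, with a summed level of 5.70 to 109 normalized counts and Phex at or under the floor in all. Of 6 tendon genes, 4 had a row and Thbs4 was at or under the floor in all, with a summed level of 375 to 3627, mostly from Egr1, an immediate early gene that many cells express.

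S100b, a calcium-binding protein made by glia and by chondrocytes, was highest in Whe10_10A and Whe10_8A, at 209 and 182 normalized counts, and was 1.45 to 111 in the other 7 clones. Whe10_10A and Whe10_8A were also the clones with the most Col2a1 and Col10a1, but the other clones did not follow this order. The sum over the glia and neural crest genes was 117 in Whe3_7A, where Col2a1 was at 253. It was 48.4 in Whe3_12A, where Col2a1 was at 1285. Ngfr, a receptor of neural crest cells and glia, was at or under the floor in all 9. The mesothelial sum over 7 genes ran from 2.95 in Whe3_7A to 2088 in Whe10_7A, with 1173 in Whe3_11A and 35.0 in MET, and Krt8 was at or under the floor in all.

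Of 8 pancreatic duct genes, 7 had a row. Of these, 4 were above the floor in all 9 clones and 1 in some, while Epcam and Cftr were at or under it in all. The duct sum of 27357 to 196111 normalized counts was almost wholly Spp1 (osteopontin), which macrophages also make. The acinar sum was 144 to 396 in 8 clones and 2415 in Whe3_5A, and the endothelial sum 156 to 429. The part of these cells in the levels of Col2a1 or Sox9 was not tested.

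Whether genes followed Sox9 was tested with limma on log2(normalized counts + 1) over the 16961 genes whose mean level was 1 normalized count or more. No gene passed an adjusted p of 0.05 in either direction, so 0% was the share called rising and 0% falling, and 0 of the 5 cartilage genes tested passed. At an unadjusted p under 0.05 there were 989 genes (5.83%), and voom on the recovered reads also called 0, with 694 unadjusted. The slope of Col2a1 was 6.40 ± 1.76 log2 units per log2 unit of Sox9 (SE, n = 9, limma adjusted p = 0.83). It was 3.96 without MET and 9.60 without Whe3_12A, and over the alternatives it lay between 2.09 and 9.60 with adjusted p between 0.088 and 1. The unadjusted limma p of Col2a1 was 0.0049 over all 9 clones and 8.5e-04 without Whe3_12A. It was 0.1 without MET, 0.082 with the prefix as a covariate and 0.21 with voom. An association with Sox9 was thus not called after adjustment over all genes, and the unadjusted p depended on the clones and the method used.

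The slope on Sox9 was 1.55 ± 0.71 for Comp, 0.19 ± 0.37 for Col9a3, -0.11 ± 0.88 for Col11a1 and -0.22 ± 0.30 for Col11a2 (SE, n = 9, limma adjusted p = 0.87, 0.99, 0.99 and 0.98). Comp had a slope of 0.37 without Whe3_12A. Of the other cartilage lists, 0 of 11 matrix genes, 0 of 13 transcription factors, 0 of 15 signals and receptors, 0 of 16 synthesis genes, 0 of 11 partner collagens and 0 of 11 breakdown genes passed. Their median slopes were -0.09, 0.08, 0.22, -0.06, -0.39 and -0.23, beside 0.01 over all genes tested.

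The same fit with log2 Mettl3, the transgene of the design, called 55 genes rising (0.324%) and 362 falling (2.13%). None of the 6 cartilage genes tested was called. The slope of Col2a1 was -3.89 ± 1.37 log2 units per log2 unit of Mettl3 (SE, n = 9, limma adjusted p = 0.21), that of Sox9 -0.42 ± 0.19 (adjusted p = 0.36), and that of Comp -0.76 ± 0.54 (adjusted p = 0.56), which was -4.17 without MET. Col9a3 had a slope of -0.20 ± 0.25, Col11a1 of 0.76 ± 0.55 and Col11a2 of 0.42 ± 0.16 (limma adjusted p = 0.74, 0.57 and 0.27). Because MET alone held the high Mettl3 level, the fit largely set MET beside the other 8 clones. Without MET no gene was called, with 1775 at an unadjusted p under 0.05, and the slope of Col2a1 turned to 7.82 (adjusted p = 0.61). Without Whe3_11A, the other clone that nearly lacked Col2a1, its slope was -4.72 (limma adjusted p = 0.009). MET again stood alone with high Mettl3 in that fit, and Col2a1 was chosen for its spread over these clones. The value is therefore given as a description only, not as a sign of an association. Over all its alternatives the adjusted p of Col2a1 was 0.009 to 1.

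Among the lists, 1 of 11 genes of matrix breakdown rose with Mettl3, namely Mmp3, a protease that cuts proteoglycans (slope 2.26, limma adjusted p = 0.019), and 1 of 10 fibroblast genes rose, Fap, a surface protease of activated fibroblasts (slope 1.18, adjusted p = 0.036). These were named after their values were seen. None of the other cartilage lists had a called gene, and neither Mmp3 nor Fap was called once MET was left out, since that fit called no gene.

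**Figure D4:**
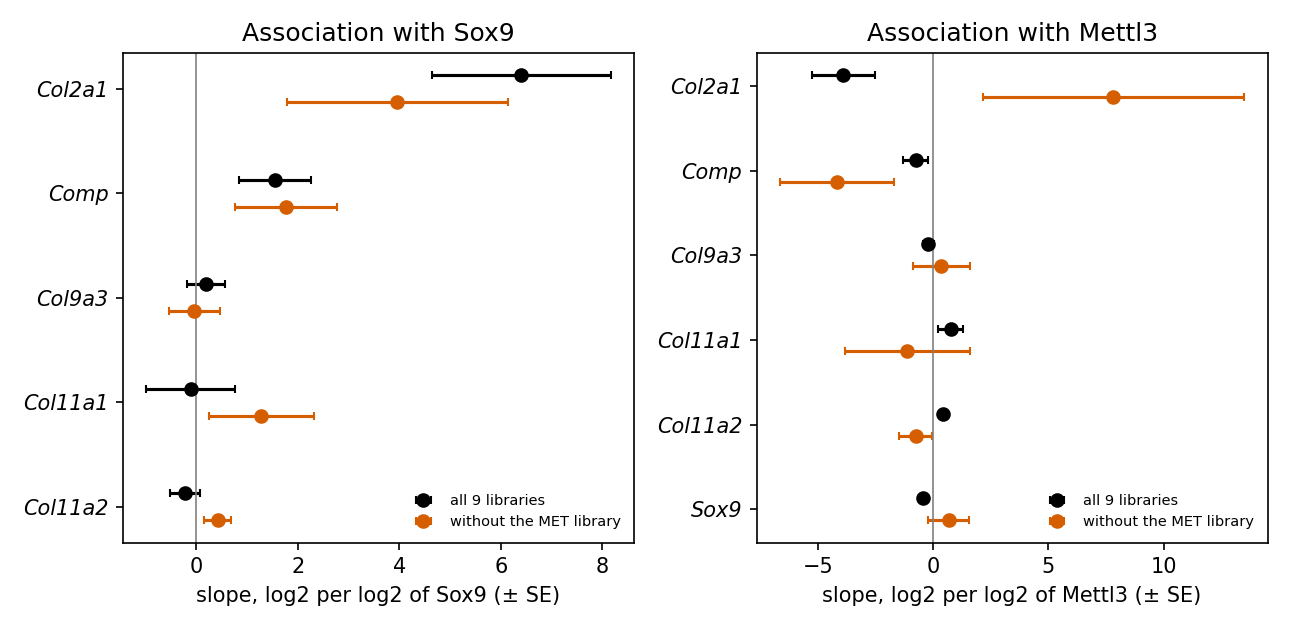
Slopes of the cartilage genes on log2 Sox9 (left) and log2 Mettl3 (right), in log2 units per log2 unit, with bars of 1 SE, for all 9 libraries (black) and without MET (orange). The slope of Col2a1 on Sox9 stays above 0 in both fits, at 6.40 and 3.96, whereas its slope on Mettl3 moves from -3.89 to 7.82 when MET is left out.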

How the data were processed

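RNA-seq libraries (TruSeq stranded mRNA) of 9 WTg MPC clones were used as 1 group. The submitters' processing notes name FastQC 0.11.9, STAR 2.7.10, RSEM 1.3.3 and the build GRCm38, and the scaling step is not given in the sources used here. The authors deposited log2 values of scaled counts with an offset of 4. Normalized counts were obtained as 2 to the power of the value, minus 4, and reads by dividing by the step between low values, which gave whole reads for 100% of values under 1000 reads (tolerance 0.1 reads). Because the deposited unit is log2, limma was run on log2(normalized counts + 1). The table also holds 6 per-sample columns of libraries from other studies, which were not used here.

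Libraries held 12198022 to 20453923 reads. No 2 libraries were alike within sampling noise: the smallest chi-square per degree of freedom was 22.6 over 15353 genes, and correlations lay between 0.946 and 0.982. Gene lengths were not used, so percentiles and the choice of the highest genes of a list rest on normalized counts without correction for length. Intervals are Wilson intervals of a gene's share of reads at 95%.

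Associations with log2 Sox9 and log2 Mettl3 were fitted with limma 3.58.1 (R 4.3.3) with a trend, on genes whose mean level was 1 normalized count or more, with Benjamini-Hochberg adjustment over all genes. On simulated data for the Sox9 fit (16961 genes, 200 changed), 81.5% of genes with a slope of 1 were recovered with 8.94% of calls unchanged genes, and 99.5% with 9.13% at a slope of 2. The simulation gave all genes the same dispersion and took clones as independent. The SD of log2 levels was 4.02 for Col2a1, 1.29 for Col11a1, 1.25 for Comp, 0.44 for Col9a3 and 0.42 for Col11a2. The median was 0.25 over genes with a mean of at least 10, so these recovery rates do not apply to the cartilage genes. Alternatives covered scaling, pseudocount, filters, voom, the column prefix as a covariate and leaving out each library. Named genes were the members, the 4 highest genes of each list, list genes at or under the floor in every library, and the 10 genes most like Col2a1. Members and lists were chosen with earlier results of these data known. Sequences came from RefSeq GRCm38.p6.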

Additional observations from a re-analysis of the deposited data

Results flagged for a closer look

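In 61 genes examined, the highest or lowest of the 9 clones was set beside the nearest other clone, and the gap was divided by the whole range. In 10 genes this share was above Dixon's critical value for 9 samples. That value flags about 1 in 20 groups, or 3.05 of 61, only where values are normally distributed and genes independent. The shares were taken on normalized counts without a log2, and all 10 flags were for the highest clone. The number flagged can therefore not be set against 3.05. Col2a1, chosen for its spread, was not examined in this way. Comp was highest in Whe3_12A, with a gap of 0.765 of its range. Fn1, the gene of fibronectin, was also highest in Whe3_12A (0.503). Of the osteoblast genes, Sp7 was highest in Whe10_8A (0.597) and Alpl in Whe3_7A (0.707). The acinar enzymes Prss2 (0.944), Ctrb1 (0.928) and Cpa1 (0.923) were all highest in Whe3_5A. Cdh1, the epithelial cadherin, was highest in Whe3_7A (0.683), as was Pecam1, an endothelial adhesion protein (0.574). Mettl3 was highest in MET (0.911).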

How the results depend on the processing

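The levels of the 8 cartilage genes stayed within 1 SD over clones under both other scalings and with each library left out (88 of 88 values). Leaving out 1 of 9 libraries cannot move a mean by a whole SD, so that part of the count holds for any gene. The mean of Col2a1 went from 1044 to 704 without Whe10_10A, and that of Comp from 43.8 to 27.2 without Whe3_12A. The largest scaling factor was 0.049 on the log2 scale. Percentiles among genes above 0 in at least 5 clones were 18.5 for Col9a3 (from 24.4), 33.7 for Col11a2 (from 38.6) and 35.3 for Sox9 (from 40.1), since fewer low genes entered. Of the 10 genes most like Col2a1, 2 were kept by Spearman's rho and 1 to 8 with a library left out. With Sox9, no gene was called under any alternative, but 4011 (23.6%) had an unadjusted p under 0.05 without Whe3_12A. With the prefix as a covariate, slopes on Sox9 were -0.06 for Col9a3, 1.30 for Col11a1 and 0.44 for Col11a2. With a library left out they ran from -0.04 to 0.35, -1.84 to 1.28 and -0.89 to 0.42. For Mettl3, the 417 calls became 656 with a pseudocount of 0.1, 238 with a minimum mean of 50, 72 with voom, 0 with the prefix as a covariate (463 at an unadjusted p under 0.05), and 0 (without MET) to 517 with a library left out. Slopes on Mettl3 with the prefix as a covariate were 0.11 for Col2a1, -1.64 for Col11a1, -0.31 for Col11a2, 1.69 for Sox9 and -6.01 for Comp (from -0.76), and with voom 4.77 for Col2a1. With a library left out they ran from -4.72 to 7.82 for Col2a1, -0.28 to 0.36 for Col9a3, -1.11 to 0.95 for Col11a1, -0.76 to 0.48 for Col11a2, -0.48 to 0.68 for Sox9 and -4.17 to -0.53 for Comp. Among these fits with a library left out, the sign was opposite to that of all 9 clones only without MET, where Comp kept its sign. Apart from these limits of design, the cause was not tested. The order of the genes by level per length was not run, because lengths were not used here. No paired analysis was possible because there is only 1 group. Depth limits Col9a2, Col9a3, Col11a2 and Comp, counted from at most 113 reads per library.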
